A study of Mus musculus with 24 samples.

Results

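The 9 genes of the methionine cycle and of transsulfuration, Bhmt, Gnmt, Mat1a, Mat2a, Cbs, Cth, Ahcy, Nnmt and Pemt, were followed in fasted mouse liver. They were found by gene name in a table of read counts of 35275 genes, and all 9 were present and passed the filter on low counts. RNA-seq was carried out on livers of male C57BL/6 mice, 8 to 10 weeks of age and fasted for 24 h, with 4 libraries in each of 6 groups. The groups were control mice, mice with liver-specific loss of Tsc1 (Tsc1 L-/-), of Cpt2 (Cpt2 L-/-) or of both (labelled Tsc1Cpt2 L-/-, here DKO), mice without Ppara (labelled PPAR-a KO, here Ppara KO) and mice without Cpt2 in the liver and without Ppara (Cpt2L-/- Ppara KO). The labels call the control mice wild type, and the study's methods describe the controls as littermates with floxed Tsc1 and Cpt2 alleles. Deletion in the liver was by Cre from the albumin promoter, which is active in hepatocytes, and liver cells without this Cre keep the intact gene. The origin of the Ppara KO mice and whether the same controls belong to them are not given in the sources used here. The labels number the libraries within a group and do not say whether each came from a separate animal, so p-values measure the spread between these libraries.

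In the methionine cycle, methionine is converted to S-adenosylmethionine (SAM), the methyl donor of the cell, and methyltransferases then turn SAM into S-adenosylhomocysteine. This is cleaved to homocysteine, which is either methylated back to methionine or passed into transsulfuration, the route to cysteine, taurine and glutathione. The liver carries out most of the body's methionine metabolism, and several of these enzymes are known as hepatocyte genes.

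On GRCm38, as the files give it, Mat1a (ENSMUSG00000037798) lies at chr14:41105381-41124412 on the plus strand. The other 8 genes are on the minus strand: Mat2a (ENSMUSG00000053907) at chr6:72432799-72439558, Gnmt (ENSMUSG00000002769) at chr17:46725664-46729168, Nnmt (ENSMUSG00000032271) at chr9:48591877-48605153, Pemt (ENSMUSG00000000301) at chr11:59970614-60046489, Ahcy (ENSMUSG00000027597) at chr2:155059310-155074497, Bhmt (ENSMUSG00000074768) at chr13:93616891-93637961, Cbs (ENSMUSG00000024039) at chr17:31612623-31637199 and Cth (ENSMUSG00000028179) at chr3:157894248-157925077. Reads were counted over whole protein-coding genes, so isoforms are not separated.

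Total counts were between 14470968 and 20371204 per library, and each of the 9 genes had at least 152 reads in every library. Tsc1, which encodes a subunit of the complex that restrains mTORC1, was at 38.5 ± 1.32 CPM (SD, n = 4) in control livers, 24.5 ± 4.56 in Tsc1 L-/- livers and 16.5 ± 1.24 in DKO livers. CPM are read counts relative to the library total, scaled between libraries by the TMM method. Ppara, the nuclear receptor of the fasting response, was at 258.5 ± 28.6 CPM in control livers, 27.4 ± 16.4 in Ppara KO livers and 50.8 ± 27.4 in Cpt2L-/- Ppara KO livers. Reads of Cpt2, an enzyme of mitochondrial fatty acid import, numbered 98.7 ± 7.06 CPM in control livers and 140.1 ± 25.9 in Tsc1 L-/- livers. The latter were higher (log2 fold change 0.51, adjusted p = 0.0374 by the edgeR quasi-likelihood test). Cpt2 was at 91.7 ± 10.4 CPM in Cpt2 L-/- livers and 96.1 ± 17.5 in DKO livers. It was at 58.3 ± 24.8 CPM in Ppara KO livers and 57.7 ± 43.6 in Cpt2L-/- Ppara KO livers. The count per gene therefore checks the loss of Cpt2 in none of the 3 groups labelled with it. Replicate 1 of Cpt2L-/- Ppara KO stood apart, with the highest Ppara (90.0 CPM) and Cpt2 (122.9 CPM) of its group and the lowest mean correlation with it (0.943). Where leaving this library out changed a call among the 9 genes, both values are given. Other results, among them correlations and counts of related genes, include it unless stated. Summed hepatocyte markers (6 of 7 listed genes, among them Alb) were at 61150 to 80060 CPM in control livers, so the labelled tissue was met by its defining markers. In DKO livers this sum was at 27500 to 34240 CPM, 2.30-fold lower on average. In bulk liver, fewer cells of a type and less RNA per cell cannot be told apart.

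Per transcript length, Mat1a was the most abundant of the 9 genes in control livers, at 2760 ± 605 FPKM (SD, n = 4), the deposited read count divided by gene length and library total. Mat1a encodes the SAM synthetase of adult hepatocytes. Gnmt, at 1511 ± 408 FPKM, encodes glycine N-methyltransferase, an abundant enzyme that consumes SAM. Ahcy, which cleaves S-adenosylhomocysteine, was at 1322 ± 292 FPKM, and Bhmt, which remethylates homocysteine with betaine, at 1007 ± 435 FPKM. The transsulfuration genes were lower: Cth (cystathionine gamma-lyase) was at 257 ± 90.5 FPKM and Cbs (cystathionine beta-synthase) at 131 ± 18.8 FPKM. Pemt, which methylates phosphatidylethanolamine to phosphatidylcholine, was at 245 ± 23.8 FPKM, and Nnmt, which methylates nicotinamide, at 129 ± 89.8 FPKM. The lowest level was that of Mat2a, the SAM synthetase of extrahepatic and growing cells, at 27.1 ± 4.72 FPKM.

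**Figure D1:**
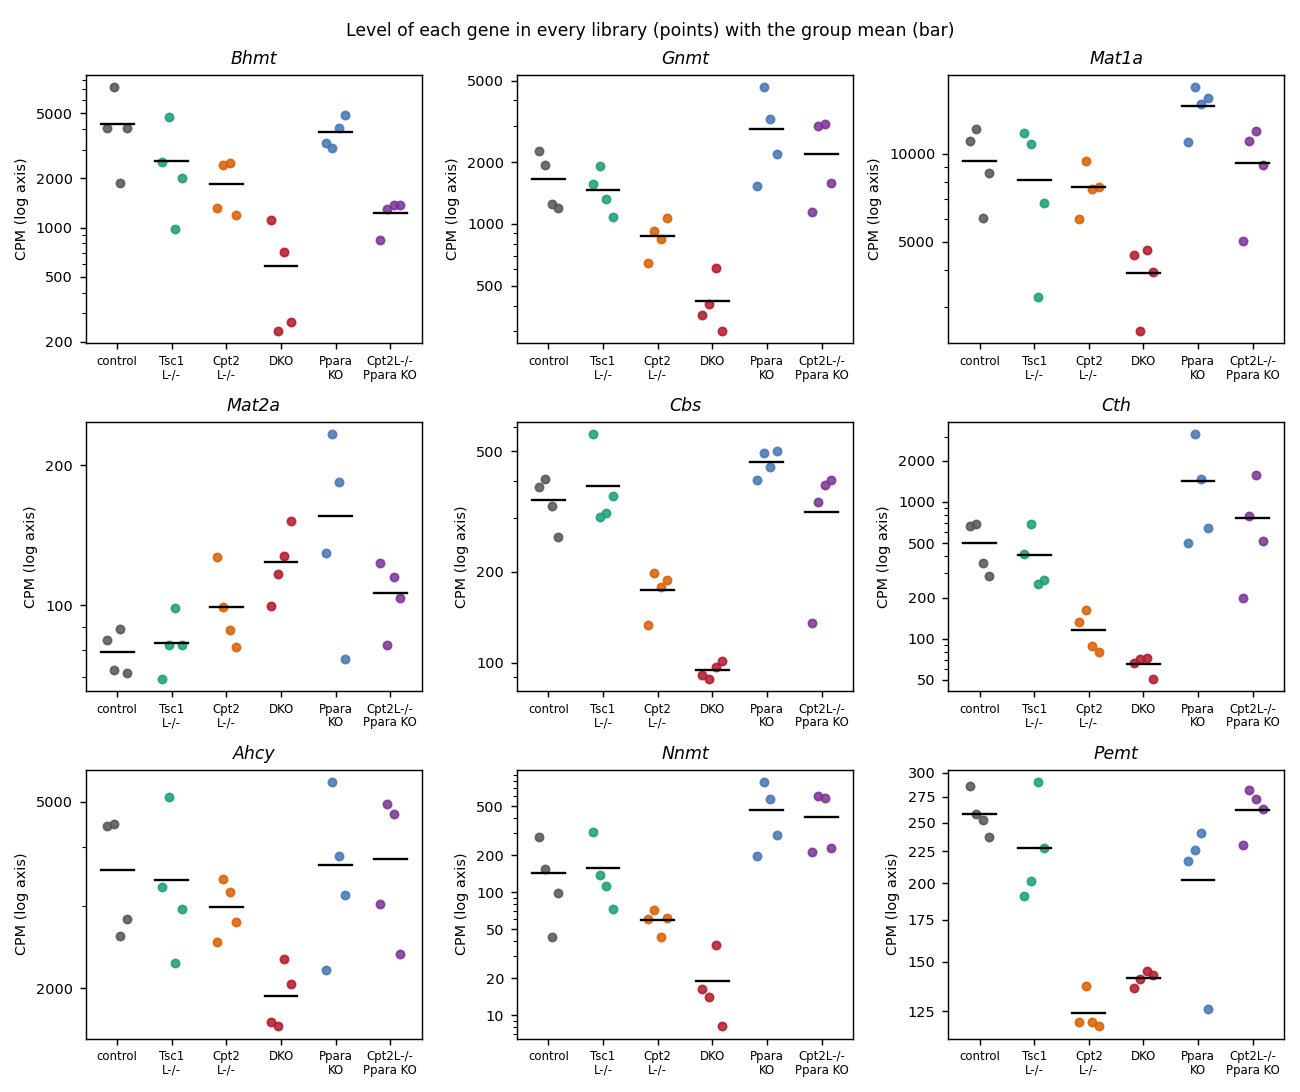
Level of each of the 9 genes in CPM (vertical log axis) in every library of the 6 groups, with 4 points per group and a bar at the group mean. Of the 9 genes, 7 have their lowest mean in DKO livers, Pemt has it in Cpt2 L-/- livers and Mat2a in control livers.

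The range between groups differed widely among the genes. Nnmt went from a mean of 460.9 CPM in Ppara KO livers to 19.0 CPM in DKO livers, a 24.3-fold difference, and Cth from 1433 to 65.5 CPM, a 21.9-fold difference between the same groups. The highest and lowest group means of Bhmt were 7.44-fold apart, of Gnmt 6.94-fold, of Cbs 4.88-fold and of Mat1a 3.72-fold. For Pemt, Mat2a and Ahcy they were 2.11-fold, 1.96-fold and 1.96-fold apart. Neighbours in the order of group means mostly overlapped, as the plot of levels by library shows. The exceptions lay at the lower end. Every DKO library was below every Cpt2 L-/- library for Gnmt, Mat1a, Cbs, Cth, Ahcy and Nnmt. Between these groups 23.1% of all tested genes had no overlap in either direction. Every Cpt2 L-/- library was below every Tsc1 L-/- library for Gnmt and Cth. The share over all genes was not computed for that pair of groups.

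Upstream sequences of 6 of the 9 genes (Ahcy, Mat2a, Pemt, Bhmt, Cbs and Gnmt) were matched by symbol in a RefSeq table on GRCm38.p6, with 2 start sites for Pemt. The 250 bases before the RefSeq start site are shown for 3 genes that were lowest in DKO livers and for Mat2a, which was not. For Bhmt this start site lies inside the gene as counted, so most of its window falls within that gene. Capitals mark the letters CCAAT on either strand (ATTGG where it lies on the other one), the core of the box bound by the NF-Y factor. The windows are chr17:46729166-46729415 (Gnmt), chr17:31637206-31637455 (Cbs), chr13:93637759-93638008 (Bhmt) and chr6:72439557-72439806 (Mat2a), all on the minus strand and written 5′ to 3′.
Gnmt: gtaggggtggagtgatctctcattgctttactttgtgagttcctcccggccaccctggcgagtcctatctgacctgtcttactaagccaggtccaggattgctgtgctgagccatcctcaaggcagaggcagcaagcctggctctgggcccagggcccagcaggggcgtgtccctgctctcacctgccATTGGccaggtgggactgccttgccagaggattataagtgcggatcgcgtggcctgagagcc
Cbs: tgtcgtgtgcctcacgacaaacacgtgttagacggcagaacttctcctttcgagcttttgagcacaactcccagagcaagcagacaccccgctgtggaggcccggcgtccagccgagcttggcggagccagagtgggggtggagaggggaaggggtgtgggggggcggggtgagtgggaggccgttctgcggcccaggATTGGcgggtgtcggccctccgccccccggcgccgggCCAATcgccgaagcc
Bhmt: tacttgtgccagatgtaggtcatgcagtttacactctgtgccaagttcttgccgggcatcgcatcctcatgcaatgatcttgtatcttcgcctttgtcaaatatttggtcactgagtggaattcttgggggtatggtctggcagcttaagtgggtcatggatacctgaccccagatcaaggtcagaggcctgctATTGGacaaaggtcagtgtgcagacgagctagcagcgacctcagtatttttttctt
Mat2a: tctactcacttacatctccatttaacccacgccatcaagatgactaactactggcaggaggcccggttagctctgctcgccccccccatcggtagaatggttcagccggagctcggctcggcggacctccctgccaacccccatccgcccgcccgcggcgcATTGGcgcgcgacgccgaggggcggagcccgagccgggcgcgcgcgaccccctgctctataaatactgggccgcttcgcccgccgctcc

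CCAAT was present in 6 of the 7 windows of these genes and in 33.8% of all 32851 windows of this length in the table. It began 62 bases before the start site in Gnmt, 56 in Bhmt, 52 and 15 in Cbs and 89 in Mat2a. Of 7 other motifs searched on both strands, GGGCGG was in 3 of the 7 windows (32.7% of all windows), AGGTCA, the half-site of many nuclear receptors, in 3 (14%), TATAAA in 1 (12.4%, in Mat2a) and CACGTG in 1 (6.02%, in Cbs). TGTTTAC, TTGCNNAA and TGATGNAAT, the last a form of the Atf4 element, were in 0 of the 7 windows and in 3.17%, 9.56% and 0.816% of all windows. A match describes letters only, and the motifs were chosen after the values of the genes were seen.

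The first comparison asked how loss of Tsc1 alone moved the 9 genes. None of the 9 passed the threshold of an adjusted p-value under 0.05 in the edgeR quasi-likelihood test, where 6.64% of all 13641 tested genes did, and 0 of 9 had an unadjusted p-value under 0.05. DESeq2 also called 0. Log2 fold changes against control were between −0.75 for Bhmt and 0.17 for Cbs, with a median of −0.17 against 0.01 over all genes tested. Bhmt was at 2522, 4755, 977 and 2007 CPM in the 4 Tsc1 L-/- livers and at 4061, 7259, 1880 and 4081 CPM in the control livers. The groups overlapped, as they did for each of the 9 genes (12.1% of all tested genes had no overlap), and the SE of the difference was 0.57. Mat1a was at 11730, 10780, 3254 and 6781 CPM in Tsc1 L-/- livers, where the third library was below every control library. Without that library, the log2 fold change of Mat1a went from −0.21 to 0.054.

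With loss of Cpt2, 4 of the 9 genes were lower than in control livers (31.0% of all genes were called in this comparison) and 0 were higher. These were Cth, Pemt, Cbs and Gnmt, so both enzymes of transsulfuration and 2 methyltransferases that use SAM. The groups did not overlap for these 4 genes (30.9% of all tested genes had no overlap). The median log2 fold change of the 9 genes was −0.99, against −0.02 over all genes tested.
Cth was at 667.5, 685, 358 and 289.6 CPM in control livers. It was at 132, 163, 89.1 and 79.8 CPM in Cpt2 L-/- livers. Every Cpt2 L-/- library was below every control library, and the fall was 4.32-fold (log2 fold change −2.11 ± 0.36 SE, adjusted p = 5e-04 by the edgeR quasi-likelihood test).
Pemt was at 286, 258, 252 and 237 CPM in control livers and at 120.4, 137, 120.3 and 118 CPM in Cpt2 L-/- livers. The spread within each group was small, and Pemt fell 2.09-fold (log2 fold change −1.06 ± 0.12, adjusted p = 7.19e-06).
Cbs was at 381, 406, 330.0 and 260.2 CPM in control livers. In Cpt2 L-/- livers it was at 134, 198, 178 and 187 CPM. The groups did not overlap, and Cbs fell 1.98-fold (−0.99 ± 0.19, adjusted p = 0.000622).
Gnmt fell 1.92-fold (−0.94 ± 0.25, adjusted p = 0.00816), from 2260, 1937, 1251 and 1200 CPM to 642, 923, 846 and 1069 CPM, again without overlap. In a fit of all 24 libraries this call was lost, at an adjusted p of 0.0525.
Bhmt had a log2 fold change of −1.22 ± 0.58 and Nnmt of −1.28 ± 0.59, with adjusted p-values of 0.126 and 0.12. Across 8 alternative ways of processing and testing, the adjusted p-value of Bhmt ranged from 0.042 to 0.219. Mat1a, Ahcy and Mat2a had log2 fold changes of −0.30, −0.27 and 0.32, and none of the 3 passed the test. The summed hepatocyte markers were 1.43-fold lower in Cpt2 L-/- than in control livers, with 2 of the 6 marker genes called lower, and 1.28-fold lower without Alb. Of the other cell types, 2 of 7 stellate cell and fibroblast markers and 1 of 5 cholangiocyte markers were lower, and 1 of 5 Kupffer cell and 1 of 6 endothelial markers were higher. The part of these cell type markers in the differences was not tested.

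**Figure D2:**
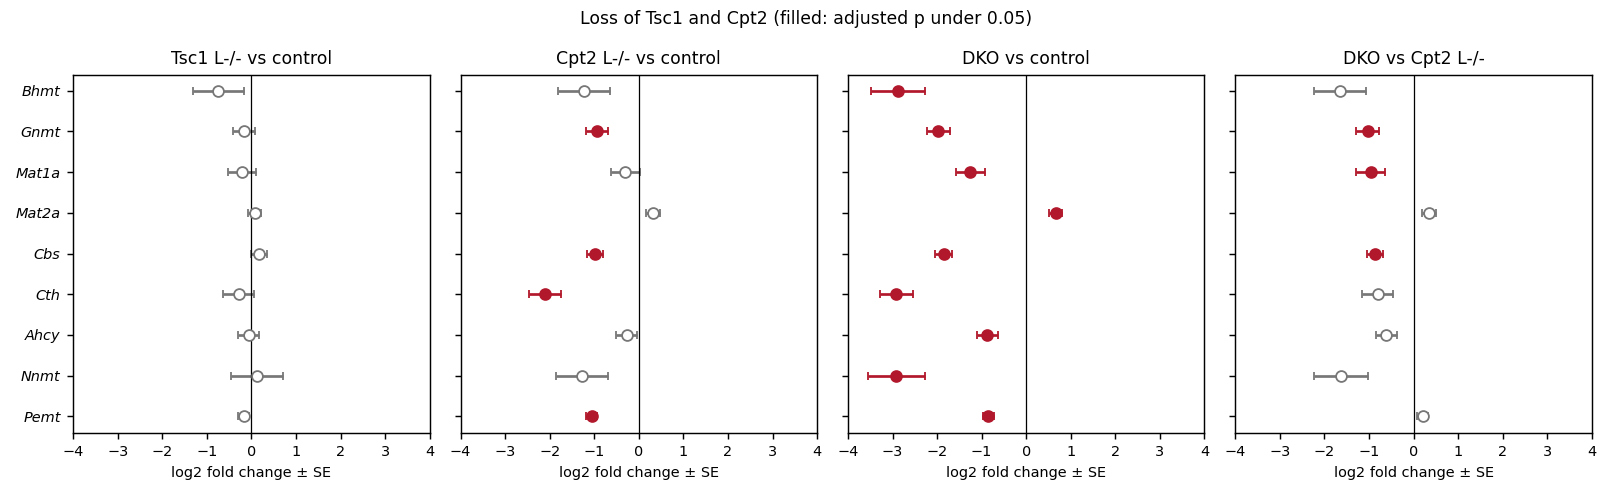
Log2 fold change with its SE (horizontal axis) for the 9 genes in 4 comparisons of the control, Tsc1 L-/-, Cpt2 L-/- and DKO groups, 4 libraries each. Filled points passed the adjusted p threshold of 0.05: 0 genes with loss of Tsc1, 4 with loss of Cpt2, 9 with loss of both and 3 between DKO and Cpt2 L-/- livers.

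In DKO livers, 9 of the 9 genes differed from control (36.4% of all genes were called), and the libraries of the 2 groups did not overlap for any of them (37.1% of all tested genes had no overlap). Of these, 8 were lower and Mat2a was higher. The median log2 fold change was −1.85, against 0.02 over all genes tested. DKO, Tsc1 L-/- and Cpt2 L-/- livers were compared with the same control libraries, so the 3 comparisons are not independent of each other.
Of the SAM synthetases, Mat1a was at 11020, 12180, 6024 and 8561 CPM in control livers. It was at 4504, 2478, 4681 and 3954 CPM in DKO livers, 2.39-fold lower (−1.26 ± 0.33, adjusted p = 0.00623). Mat2a was at 84.1, 72.5, 89.0 and 71.7 CPM in control livers.
In DKO livers Mat2a was at 99.6, 117, 127 and 151.9 CPM, 1.58-fold higher (0.66 ± 0.15, adjusted p = 0.00282), so the 2 synthetases moved in opposite directions.
The methyltransferase genes fell by different amounts. Gnmt was at 361, 405, 610.2 and 299.9 CPM in DKO livers, each below the lowest control library (−1.97 ± 0.26, adjusted p = 1.52e-05). Nnmt was at 281, 154, 43.1 and 98.0 CPM in control livers, a wide spread. In DKO livers it was at 16.4, 14.1, 37.3 and 8.12 CPM, 7.53-fold lower (−2.91 ± 0.63, adjusted p = 0.00315), and the highest DKO library lay just under the lowest control library.
Pemt was at 136, 141, 145 and 143 CPM in DKO livers, 1.81-fold below control (−0.86 ± 0.12, adjusted p = 3.54e-05). Ahcy, the hydrolase that follows these enzymes in the cycle, was at 1696, 1661, 2311 and 2040 CPM. It had been at 4435, 4489, 2584 and 2811 CPM in control livers, and this was the smallest log2 fold change apart from those of Pemt and Mat2a (−0.88 ± 0.24, adjusted p = 0.00738).
Bhmt was at 1120, 233, 706 and 263.8 CPM in DKO livers, where replicates 2 and 4 were low and replicates 1 and 3 higher. All 4 were below the control libraries, with a 7.34-fold difference (−2.88 ± 0.61, adjusted p = 0.0025).
In transsulfuration, Cbs was at 91.1, 88.5, 96.5 and 101 CPM in DKO livers, 3.61-fold below control (−1.85 ± 0.19, adjusted p = 1.46e-06). Cth was at 66.3, 71.7, 72.9 and 51.0 CPM, 7.54-fold below control (−2.92 ± 0.37, adjusted p = 3.42e-05). Both had narrow ranges among the DKO livers. With each library left out in turn, the number of genes called stayed at 9.
The summed hepatocyte markers, 2.30-fold lower in DKO livers, moved with these genes, and 3 of the 6 hepatocyte marker genes were called lower, as were 7 of 7 stellate cell and fibroblast markers (154.8 to 194.1 CPM summed in DKO, 256.9 to 354 in control), 4 of 6 endothelial markers (172.5 to 294.6 against 291 to 334 CPM) and 4 of 5 tested Kupffer cell and macrophage markers (155.4 to 263.9 against 207.7 to 349 CPM), of which 1 more was higher. Of 5 cholangiocyte markers, 1 was lower. Alb, the largest part of the hepatocyte sum in control livers, was at 43890 CPM there and at 12610 CPM in DKO livers on average, and the sum of the other 5 hepatocyte markers was 1.44-fold lower in DKO livers. Their part in the result was not tested.

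DKO livers were then compared with Cpt2 L-/- livers, which asks what loss of Tsc1 adds where Cpt2 is already lost. Of the 9 genes, 3 were called, all lower (18.3% of all genes were called): Gnmt (−1.03 ± 0.25, adjusted p = 0.00894), Cbs (−0.86 ± 0.19, adjusted p = 0.00457) and Mat1a (−0.96 ± 0.33, adjusted p = 0.0489). The call of Mat1a was lost when any one of the 8 libraries was left out, with adjusted p-values from 0.0513 to 0.151. The call of Gnmt held in each of these fits. It was lost in a fit of all 24 libraries, where 7.61% of all genes were called. Bhmt (−1.65), Nnmt (−1.64), Cth (−0.81) and Ahcy (−0.61) had no overlap between the groups (23.1% of all tested genes had none) and adjusted p-values of 0.0649, 0.0779, 0.125 and 0.0768. Pemt (0.21) and Mat2a (0.34) were not called either and had overlapping libraries. Calls were gained for Bhmt without DKO replicate 1 (−2.19, adjusted p = 0.0298), for Nnmt without DKO replicate 3 (−2.18, adjusted p = 0.0387) and for Mat2a without Cpt2 L-/- replicate 1 (0.49, adjusted p = 0.0336). The count depended on the tool. DESeq2 called 7 of the 9 genes and 3001 of all 13641 genes. A fit of the 2 groups alone called 6 of the 9 and 20.3% of all genes. The summed hepatocyte markers were 1.61-fold lower in DKO than in Cpt2 L-/- livers and 1.13-fold lower without Alb, with 2 of the 6 genes called lower and 1 higher. Of the Kupffer cell markers 4 of 5 were lower and 1 was higher, 2 of 7 stellate cell and 2 of 6 endothelial markers were lower, and 1 of 5 cholangiocyte markers was higher. Their part in the result was not tested.

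The interaction of the 2 deletions, the change with both beyond the sum of the single changes on the log2 scale, was called for Cbs only (1 of 9, against 2.38% of all genes). Cbs was at 569, 304, 311.5 and 356 CPM in Tsc1 L-/- livers, which overlapped with the control livers, and its interaction was −1.03 ± 0.26 (adjusted p = 0.047). The call was lost in 11 of the 16 fits that left out 1 library and held only without control replicate 1 or 2, Tsc1 L-/- replicate 2 or 3, or Cpt2 L-/- replicate 1. Without Tsc1 L-/- replicate 1, the highest Cbs library of its group, the interaction was −0.78 (adjusted p = 0.0598). The interactions of Nnmt (−1.76 ± 0.84), Gnmt (−0.86 ± 0.35) and Pemt (0.38 ± 0.17) had adjusted p-values of 0.277, 0.19 and 0.234.

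The ratio of Mat1a to Mat2a, from the FPKM of each library, describes the balance of the 2 SAM synthetases. In control livers it was between 59.2 and 146.9 with a geometric mean of 101, and in DKO livers between 18.6 and 39.5 with a geometric mean of 27.1. No DKO library reached the lowest control library, and the mean log2 ratio was lower by 1.90 (p = 0.0286 by a two-sided exact permutation test of 4 against 4 libraries, the smallest p it can give). Adjusted over 5 such comparisons p was 0.143, and a single comparison at the smallest p cannot pass the threshold after that adjustment. In Tsc1 L-/- livers the ratio was between 28.9 and 147.6, in Cpt2 L-/- livers between 41.4 and 83.5, in Ppara KO livers between 63.5 and 177.0 and in Cpt2L-/- Ppara KO livers between 35.8 and 118. These 4 groups overlapped with the group they were compared with, and unadjusted p-values of the exact permutation test were 0.657, 0.229, 0.657 and 0.771.

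**Figure D3:**
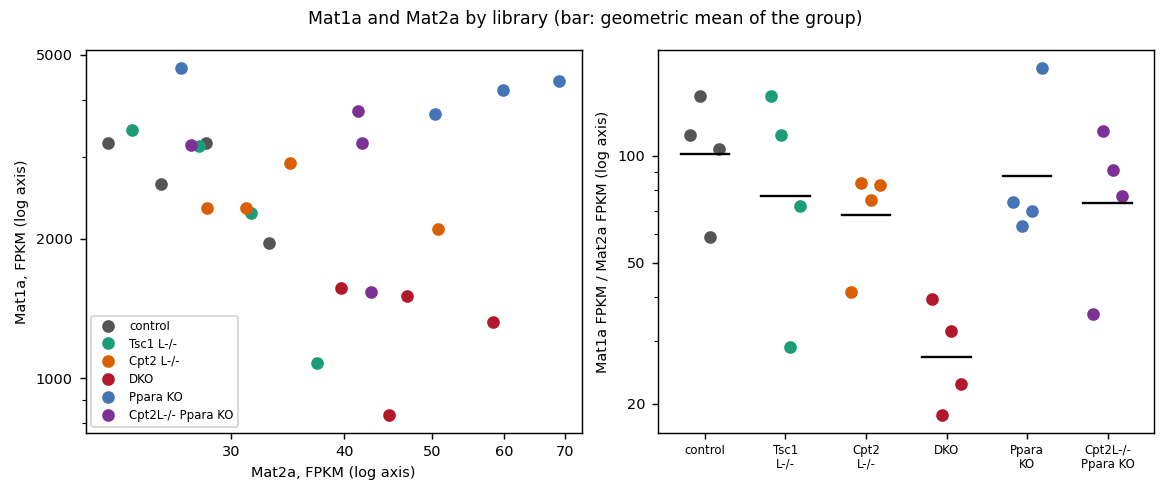
Left, Mat1a against Mat2a in FPKM (both axes log) for each of the 24 libraries; right, their ratio (log axis) by group with a bar at the geometric mean. The 4 DKO libraries have ratios of 18.6 to 39.5, below the control range of 59.2 to 146.9.

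The next comparison asked how loss of Ppara alone moved the genes. Against control livers, 2 of the 9 genes were called, both higher (29.0% of the 13615 genes tested in the fit with these groups were called), and 5 had an unadjusted p-value under 0.05. The share of the 9 genes called, 22.2%, was below that of all genes. The groups overlapped for each of the 9 genes (29.9% of all tested genes had no overlap). Nnmt was at 195, 788, 567 and 294 CPM in Ppara KO livers, 3.17-fold above control (1.66 ± 0.52, adjusted p = 0.0229), although replicate 1 lay below the highest control library of 281 CPM. The call was lost without Ppara KO replicate 2 (1.28, adjusted p = 0.0844) or replicate 3 (adjusted p = 0.0595), and without control replicate 3 (0.0531) or 4 (0.0674). Mat2a was at 129.6, 233, 184 and 76.5 CPM, 1.95-fold above control (0.96 ± 0.26, adjusted p = 0.00971), with 3 of the 4 libraries above all controls and replicate 4 within the control range.
Cth varied most within this group, at 499.5, 3122, 1462 and 649.8 CPM. Its log2 fold change was 1.5 ± 0.58 (adjusted p = 0.062). Across 8 alternative ways of processing and testing, its adjusted p-value ranged from 0.0373 to 0.148. Cth was called without replicate 1 (1.78, adjusted p = 0.0254) and without replicate 4 (1.75, adjusted p = 0.0368). Without replicate 1, Gnmt was called too and the number of genes called was 4. In that fit 4365 of all 13860 genes were called, against 3952 of 13615 with this library. Replicate 1 stood apart from its group in Cpt2 (94.9 CPM against 39.8 to 51.4).
Gnmt (0.79 ± 0.36) was at 1527, 4664, 3248 and 2197 CPM and Mat1a (0.61 ± 0.28) at 10990, 16920, 14720 and 15490 CPM, with adjusted p-values of 0.103 and 0.112. Replicate 2 was the highest library of this group for Gnmt, Cth, Nnmt, Mat1a, Mat2a and Ahcy. Cbs (0.41), Ahcy (0.03), Bhmt (−0.18) and Pemt (−0.36) were not called either. The summed hepatocyte markers were at 54580 to 77920 CPM in Ppara KO livers, within 1.06-fold of control on average, and 0 of 6 marker genes were called. Of the other lists, 1 Kupffer cell, 1 endothelial and 1 cholangiocyte marker were higher and 1 Kupffer cell, 1 stellate cell and 1 lymphocyte marker were lower, and summed erythroid markers, with 0 of 5 called, were at 426.6 to 2055 CPM against 339.6 to 788 CPM. Their part in the result was not tested.

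**Figure D4:**
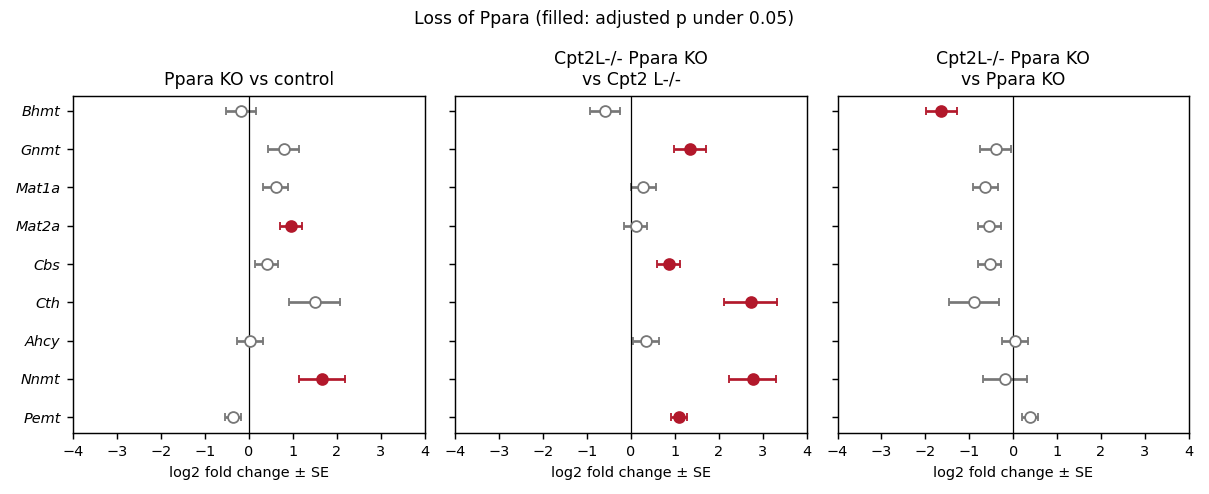
Log2 fold change with its SE (horizontal axis) for the 9 genes in 3 comparisons that involve loss of Ppara, 4 libraries per group. Filled points passed the adjusted p threshold of 0.05: Mat2a and Nnmt in Ppara KO, Gnmt, Cbs, Cth, Nnmt and Pemt in Cpt2L-/- Ppara KO against Cpt2 L-/-, and Bhmt against Ppara KO.

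Where Cpt2 was lost, additional loss of Ppara was accompanied by higher levels of 5 of the 9 genes (18.4% of all genes were called): Cth, Nnmt, Gnmt, Pemt and Cbs. None was called lower. The median log2 fold change was 0.86, against 0.03 over all genes tested. These include the 4 genes called lower in Cpt2 L-/- against control, a comparison that shares the Cpt2 L-/- libraries and is therefore not an independent result.
Nnmt was at 60.4, 72.1, 43.6 and 62.2 CPM in Cpt2 L-/- livers. It was at 212, 603, 577 and 228 CPM in Cpt2L-/- Ppara KO livers, 6.81-fold higher without overlap (2.77 ± 0.54, adjusted p = 0.003).
Cth was at 199.9, 784, 1562 and 522 CPM in Cpt2L-/- Ppara KO livers, each above the highest Cpt2 L-/- library, and 6.62-fold higher on average (2.73 ± 0.61, adjusted p = 0.00746). Without replicate 3 of this group the log2 fold change was 2.11 (adjusted p = 0.0197).
Pemt was at 230.5, 281, 273 and 263 CPM, 2.12-fold higher (1.08 ± 0.18, adjusted p = 0.00098), with 3 of the 4 libraries within the range of the control livers and replicate 1 just below it. Gnmt was at 1149, 2997, 3078 and 1576 CPM, 2.54-fold higher (1.34 ± 0.36, adjusted p = 0.0176), and each of these libraries was above every Cpt2 L-/- library. Of the 5 called genes 4 had no overlap between the groups, as had 22.3% of all tested genes. The Gnmt call was lost without Cpt2 L-/- replicate 1 (adjusted p = 0.0554) or 3 (0.0548), or without Cpt2L-/- Ppara KO replicate 2 (0.0591).
Cbs was at 135, 340.1, 386 and 402 CPM, so replicate 1 lay within the Cpt2 L-/- range and the other 3 above it (0.86 ± 0.26, adjusted p = 0.0323). This call was lost without any of 6 of the 8 libraries (adjusted p from 0.0689 to 0.0985). It held without Cpt2 L-/- replicate 2 and without replicate 1 of Cpt2L-/- Ppara KO, where the log2 fold change was 1.11 (adjusted p = 0.000563). The number of genes called was 5 with and without that replicate. Over all genes, 2499 were called in this comparison, and 1149 without Cpt2 L-/- replicate 3, 1239 without Cpt2 L-/- replicate 4 and 1418 without Cpt2L-/- Ppara KO replicate 2. Bhmt (−0.59), Mat1a (0.28), Ahcy (0.34) and Mat2a (0.11) were not called. The summed hepatocyte markers differed by 1.05-fold between the 2 groups, at 40160 to 56710 CPM in Cpt2L-/- Ppara KO and 34860 to 58130 CPM in Cpt2 L-/- livers, with 1 of 6 marker genes called higher. Erythroid markers summed to 703 CPM on average against 234.5 CPM, with 3 of 5 called higher, and 2 of 5 Kupffer cell markers and 1 of 3 tested neutrophil markers were higher and 1 of 7 stellate cell markers lower. Their part in the result was not tested.

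Between Cpt2L-/- Ppara KO and Ppara KO livers, 1 of the 9 genes was called (25.5% of all genes were called). In a fit of these 2 groups alone only 0.868% of all genes were called, and 1 of the 9 genes was called there as well. This was Bhmt, at 839, 1302, 1375 and 1380 CPM against 3267, 3078, 4047 and 4896 CPM, 3.11-fold lower without overlap, which held for 18.1% of all tested genes (−1.64 ± 0.35, adjusted p = 0.00651). Without replicate 1 of Cpt2L-/- Ppara KO it was −1.5 (adjusted p = 0.0202). Cth (−0.89 ± 0.57), Mat1a (−0.64 ± 0.28), Mat2a (−0.54 ± 0.26), Cbs (−0.54 ± 0.26), Gnmt (−0.39 ± 0.36) and Nnmt (−0.18 ± 0.50) were not called, and nor were Pemt (0.38 ± 0.18) and Ahcy (0.05 ± 0.30), with adjusted p-values of 0.104 or more. Mat2a was called (−0.78, adjusted p = 0.0191) when Ppara KO replicate 4 was left out. The summed hepatocyte markers were 1.41-fold lower in Cpt2L-/- Ppara KO than in Ppara KO livers and 1.26-fold lower without Alb, with 0 of 6 genes called. Of the Kupffer cell markers 3 of 5 were higher, of the endothelial ones 3 of 6 were lower and 1 higher, of the stellate cell ones 2 of 7 were lower and 1 higher, and of the cholangiocyte ones 1 of 5 was lower. Their part in the fall of Bhmt was not tested.

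The interaction of Cpt2 and Ppara loss, which asks whether the effect of one depends on the other, was called for 1 of the 9 genes against 24.0% of all genes. This gene was Pemt, with an interaction of 1.44 ± 0.26 (adjusted p = 0.00131). Pemt was lower with loss of Cpt2 where Ppara was present (−1.06) and had a log2 fold change of 0.38 where Ppara was lost. It was called in every fit that left out 1 library, with adjusted p-values from 0.000786 to 0.00443. Without replicate 1 of Cpt2L-/- Ppara KO Pemt remained called (adjusted p = 0.000786) and Cbs was called as well (0.70, adjusted p = 0.0499). Mat2a (−0.86 ± 0.36, adjusted p = 0.0902) was called without Ppara KO replicate 4 (−1.11, adjusted p = 0.0124), and Cth (1.22 ± 0.81) and Nnmt (1.10 ± 0.71) were not.

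Across the 24 libraries, the 9 genes did not move as a single block. On log2 CPM, the levels of Gnmt correlated with those of Nnmt (Pearson's r = 0.95) and Cth (0.95), and the values within groups, after subtraction of each group mean, gave r = 0.83 and 0.84. Bhmt was closer to Mat1a (0.82, and 0.75 within groups) than to any other of the 9 genes. Mat2a had correlations between −0.31 and 0.14 with the other 8, although within groups it correlated with Pemt at 0.66. Ppara KO replicate 4 was the lowest library of its group for both Mat2a (76.5 CPM) and Pemt (126 CPM). The correlation of these genes without that library was not computed. Pemt correlated with Gnmt at 0.64 across groups and at 0.28 within them. These correlations are descriptions over 24 libraries that share groups and scaling.

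Among 8078 genes with a mean of at least 10 CPM, up to 3 of the genes most like each of the 9 were named by Pearson's r over the 24 libraries. For Gnmt they were Serpina1b (0.95), Nnmt (0.95) and Serpina1a (0.95), the first and last encoding secreted protease inhibitors of hepatocytes. For Nnmt they were Gnmt (0.95), Cyp3a13 (0.93) and Slc25a15 (0.93), the mitochondrial ornithine carrier, and for Cth they were Gnmt (0.95) and Cnn3 (0.92). For Cbs they were Gm4788 (0.94), Gls2 (0.94), the liver glutaminase, and Serpina1a (0.93). For Mat1a they were Gfra1 (0.92), Itih2 (0.91) and Cdo1 (0.87), the cysteine dioxygenase of taurine synthesis. Those of Mat2a were Gps2 (0.87), Ddx39b (0.87), an RNA helicase, and Snhg5 (0.87), and those of Pemt were Cd47 (0.88) and Adk (0.88), the adenosine kinase that clears a product of the Ahcy reaction.
For Bhmt they were Gm5096 (0.96), Itih1 (0.86) and Alb (0.85), and for Ahcy Gm4737 (0.96), Got1 (0.90) and Asl (0.89), an enzyme of the urea cycle. Gm5096 and Gm4737 are predicted genes that share sequence with the gene they resemble: 20.5% of all 75-base words of the Bhmt transcripts and 62.5% of those of the Ahcy transcripts occur in them. Reads that fit both places could be split or dropped by the authors' counting, so the levels of Bhmt and Ahcy are uncertain in that respect. Gm5096 held 384 reads per library on average against 38710 for Bhmt, and Gm4737 held 223 against 52290 for Ahcy. The pseudogene Bhmt-ps1 shares 10.9% of the words of Bhmt and held 159 reads per library, and Gm15622, which lies antisense to Bhmt, held 47.8. Mat1a and Mat2a share 0 such words.

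The other genes of these pathways were taken from 7 lists of 109 genes in all, of which 102 were tested. With loss of Tsc1, 14 of the 102 were called, 8 higher and 6 lower (13.7%, against 6.64% of all genes). With loss of Cpt2, 58 were called, 22 higher and 36 lower (56.9% against 31.0%). In DKO livers 58 were called, 26 higher and 32 lower (56.9% against 36.4%), and in Ppara KO livers 47, with 15 higher and 32 lower (46.1% against 29.0%). In Cpt2L-/- Ppara KO against Cpt2 L-/- livers 23 were called, 14 higher and 9 lower (22.5% against 18.4%, a share near that of all genes).
Of 12 genes of remethylation and of SAM handling, 6 were called in DKO livers, 1 higher and 5 lower. Sardh and Dmgdh, which break down sarcosine and dimethylglycine, the products of the Gnmt and Bhmt reactions, were lower in DKO livers (−1.73 and −0.88). Mtr, the methionine synthase itself, and Bhmt2 were called in none of the comparisons between groups.
Of 22 tested genes of folate one-carbon metabolism and serine synthesis, 13 were called in DKO livers, 6 higher and 7 lower. Psat1, an enzyme of serine synthesis, rose from 0.673 CPM in control livers to 44.6 CPM in DKO livers (6.04 ± 0.70, adjusted p = 2.2e-05), and it was higher also in Tsc1 L-/- (3.59), Cpt2 L-/- (3.89) and Ppara KO livers (4.09). Mthfd2, a mitochondrial folate enzyme, rose from 1.13 to 18.4 CPM in DKO livers (4.02 ± 0.38), and Aldh1l2 from 0.196 to 1.95 CPM (3.23 ± 0.64).
Of 14 other SAM-dependent methyltransferases, 10 were called in DKO livers, 5 in each direction. Inmt fell from 242.9 to 21.7 CPM (−3.47 ± 0.75) and Gamt, the last step of creatine synthesis, from 96.6 to 16.8 CPM (−2.51 ± 0.41). Tpmt fell as well (−1.65), and all 3 were also lower in Ppara KO livers (−2.27, −1.13 and −2.25).
Of 12 genes of phosphatidylcholine and choline metabolism, 6 were called in DKO livers. Chka, the choline kinase of the alternative route to phosphatidylcholine, was higher in Cpt2 L-/-, DKO and Ppara KO livers (1.43, 1.59 and 1.84), and Etnk2, an ethanolamine kinase, was lower in DKO livers (−3.14, from 642 to 71.8 CPM).
Among 17 genes of cysteine, taurine, glutathione and sulfide metabolism, 11 were called in DKO livers, 4 higher and 7 lower. Cdo1, which oxidizes cysteine, was lower there (−1.07 ± 0.23). Slc7a11, the cystine carrier, had 0 reads in each control library and 12 to 177 in the Cpt2 L-/- libraries, at least 82.5-fold higher against a floor of 3 counts over the control group. Most of these reads were in replicate 4, and without it the bound was at least 29.3-fold (62 reads in 3 libraries). In DKO libraries Slc7a11 had 0 to 4 reads.
Of 12 genes of methionine salvage and polyamines, 8 were called in DKO livers, 6 higher and 2 lower. Smox and Sat1, which act in polyamine breakdown, rose in DKO livers (2.88 and 1.35), as did Srm, the spermidine synthase (1.15). Of 13 genes of nicotinamide and NAD metabolism, 4 were called in DKO livers, a share of 30.8% that is below the 36.4% of all genes. Aox3, an oxidase of the liver, was lower by the most (−2.42 ± 0.31).

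**Figure D5:**
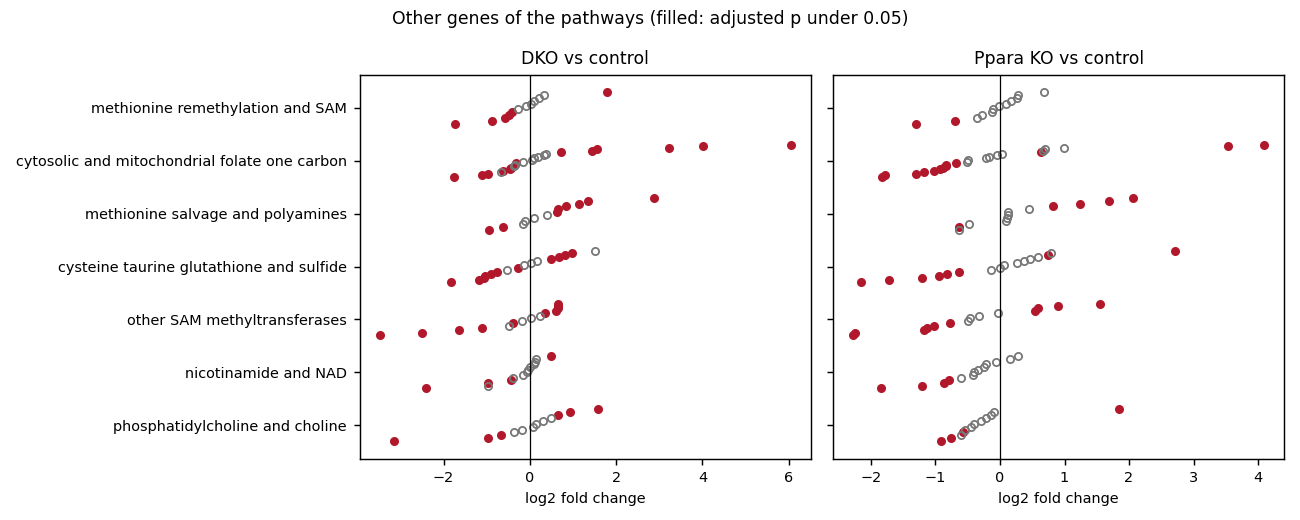
Log2 fold change (horizontal axis) of the genes of 7 lists of related pathways in DKO livers (left) and Ppara KO livers (right) against control, one point per gene and the genes of a list spread vertically by rank. Filled points passed the adjusted p threshold of 0.05, which were 58 of 102 tested genes on the left and 47 on the right, with Slc7a11 counted but not drawn because its control libraries are at 0.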

How the data were processed

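Liver RNA for 24 libraries was prepared with a stranded mRNA kit and sequenced as single 75-base reads, per the labels. The authors deposited read counts per gene (whole numbers, not normalized) and FPKM, computed from the same counts by gene length and library total. The gene lengths in the file were not used as measurements. The submitters' processing notes name Bowtie 0.12.2, TopHat, STAR 2.5, HTSeq 0.6.1, DESeq2 and edgeR without roles. They also name mm8 and mm9, while the coordinates in the files are those of GRCm38. The strand setting of the counting is not given in the sources used here, so reads of overlapping genes and of near-identical copies could be misassigned. The 9 genes, the pathway lists and the marker lists were chosen with earlier results of these data known.

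Differential expression was computed from the deposited counts by edgeR 4.0.16 under R 4.3.3 (filterByExpr with a minimum count of 10 and total of 15, TMM, robust glmQLFit and glmQLFTest), with Benjamini-Hochberg adjustment over all genes tested and a threshold of 0.05. One fit held the control, Tsc1 L-/-, Cpt2 L-/- and DKO libraries (13641 genes) and another the control, Cpt2 L-/-, Ppara KO and Cpt2L-/- Ppara KO libraries (13615 genes), so comparisons share control or Cpt2 L-/- libraries. Log2 CPM used a prior count of 2. The Mat1a to Mat2a ratio was tested by exact permutation over libraries. The script was tested on simulated data. No 2 libraries of a group agreed within sampling noise (chi-square per gene of 26.0 or more over 36 pairs). Named genes were the 9 members, the deleted genes, the 3 called genes with the largest change per list and comparison, and the 3 most similar genes per member. Some genes that met these rules are not reported here. Mtr, Bhmt2 and the value of Gamt in Ppara KO livers are outside this rule and were added after their values were seen. Alternatives were RLE factors, no filter, DESeq2 1.42.0, all 24 libraries, 2 groups alone, the replicate block, limma 3.58.1 on log2 FPKM with pseudocounts of 1 and 0.1, and each library left out. The marker sum without Alb and the Slc7a11 value without 1 library were added after seeing the data. Figures were drawn with matplotlib 3.10.9.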

Additional observations from a re-analysis of the deposited data

Results flagged for a closer look

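In 54 tests of a single library far from its group (9 genes in 6 groups of 4, on log2 CPM), 4 values, from 3 libraries, lay farther from the nearest other one than chance gives in about 1 of 20 groups, a number close to what chance gives over 54 tests. Replicate 1 of Cpt2L-/- Ppara KO was the lowest for Bhmt (839 CPM) and for Cbs (135 CPM). Pemt was highest in replicate 2 of Cpt2 L-/- (137 CPM) and lowest in replicate 4 of Ppara KO (126 CPM).

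The effect of Tsc1 loss on Cbs differed between livers with and without Cpt2 by a test of the interaction (log2 difference −1.03, 4 libraries per group, adjusted p = 0.047 by the edgeR quasi-likelihood test). This call was lost in 11 of 16 fits that left out 1 library, with all 24 libraries and with the replicate block. The effect of Ppara loss on Pemt differed between livers with and without Cpt2 (log2 difference 1.44, adjusted p = 0.00131 by the same test). Such an interaction was called for 24.0% of all genes. Pemt was higher in 4 of 4 Cpt2L-/- Ppara KO libraries than in any Cpt2 L-/- library, and 22.3% of all tested genes had no overlap there. The low Ppara KO replicate 4 takes part in this difference. With each library left out the difference was between 1.24 and 1.53.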

How the results depend on the processing

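The number of the 9 genes called stayed within 1.5 times of the value reported under RLE factors in all 9 comparisons and interactions. Between DKO and Cpt2 L-/- livers 3 genes were called (2494 of all 13641 tested). DESeq2 called 7 (3001 of 13641), the fit of 2 groups 6 (2624 of 12946) and limma with either pseudocount 5 (2290 and 2245 of 13641). Between Ppara KO and control livers 2 were called (3952 of 13615), and 1 without the filter (3450 of 22940) or in 2 groups alone (3559 of 12955). The interaction of Tsc1 and Cpt2 loss called 1 gene (324 of 13641), and 0 with all 24 libraries (65 of 13987) or the replicate block (270 of 13641). The interaction of Cpt2 and Ppara loss called 1 (3270 of 13615), and 2 with all 24 libraries (4087 of 13987). Among single genes, Mat1a between DKO and Cpt2 L-/- livers was not called without the filter, with all 24 libraries or with the replicate block, Nnmt between Ppara KO and control livers was not called without the filter or in 2 groups alone, and Cbs between Cpt2L-/- Ppara KO and Cpt2 L-/- livers was not called in 2 groups alone or by limma. With all 24 libraries, Gnmt was called neither in Cpt2 L-/- against control nor in DKO against Cpt2 L-/- livers. Against control, Bhmt in Cpt2 L-/- and Cth in Ppara KO livers passed the threshold under an alternative (lowest adjusted p of 0.042 and 0.0373). The cause of these differences was not tested. Same-numbered libraries had mean correlations of −0.011 and 0.039 in the 2 fits, over 0.1 in 4 and 5 of 24 pairs, so the numbers were not taken as pairs. With the replicate block the counts were 0 for Tsc1 loss, 4 for Cpt2 loss, 9 for DKO, 3 for DKO against Cpt2 L-/-, 2 for Ppara KO, 5 and 1 for Cpt2L-/- Ppara KO against Cpt2 L-/- and Ppara KO and 1 for the second interaction. Pairing cannot change the mean differences of the Mat1a to Mat2a ratio, and an exact paired test of 4 pairs cannot pass the threshold.

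With each library left out, the counts ranged from 1 to 4 for Ppara KO against control, 3 to 5 for Cpt2L-/- Ppara KO against Cpt2 L-/-, 1 to 2 against Ppara KO, 2 to 3 for DKO against Cpt2 L-/-, 0 to 1 for the first interaction and 1 to 2 for the second. Directions of uncalled genes turned. In Tsc1 L-/- livers the log2 fold changes ranged from −0.32 to 0.021 (Gnmt), −0.44 to 0.054 (Mat1a), −0.019 to 0.15 (Mat2a), −0.082 to 0.27 (Cbs), −0.33 to 0.088 (Ahcy) and −0.42 to 0.69 (Nnmt), and the Mat1a to Mat2a difference from −0.70 to 0.081. In Ppara KO livers they ranged from −0.43 to 0.19 (Bhmt) and −0.23 to 0.20 (Ahcy), where Ahcy was also −0.021 with the replicate block and −0.005 with limma at either pseudocount. In Cpt2L-/- Ppara KO against Ppara KO livers they ranged from −0.14 to 0.30 (Ahcy) and −0.44 to 0.21 (Nnmt), and the ratio against Cpt2 L-/- from −0.12 to 0.47. The lowest count behind any value of the 9 genes was 152 reads. Calls over all genes also moved by over 1.5 times: for Tsc1 loss 906 were called, and 466 in 2 groups alone and 400 with all 24 libraries. For Cpt2 loss 4235 became 2798 and for DKO against Cpt2 L-/- 2494 became 1065 with all 24 libraries. For Cpt2L-/- Ppara KO against Ppara KO 3475 became 111 in 2 groups alone. For the first interaction 324 became 65 with all 24 libraries, 754 with DESeq2 and 195 with limma at a pseudocount of 0.1. With each library left out, calls over all genes ranged from 583 to 967 for Tsc1 loss, 1428 to 2498 for DKO against Cpt2 L-/-, 150 to 403 for the first interaction, 1149 to 2990 for Cpt2L-/- Ppara KO against Cpt2 L-/- and 1728 to 4125 against Ppara KO, the lowest without control replicate 3, DKO replicate 2, DKO replicate 2, Cpt2 L-/- replicate 3 and Cpt2L-/- Ppara KO replicate 1. For Ppara KO against control they ranged from 2938 to 4365, and for the second interaction from 2396 to 3767.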
